A study of Mus musculus with 24 samples.

Results

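The genes described here were 10 that mark immature myeloid cells and blood progenitors: Mpo, Elane, Prtn3, Ctsg, Ms4a3, Cd34, Kit, Flt3, Myb and Gfi1. They were chosen by symbol, with earlier results of these data known, and all 10 were found among the 23420 genes counted in every library. Shares over all genes are therefore given below for reference and do not test the members as a set. The series holds 24 poly(A) RNA-seq libraries from mice, of which 16 are of bone marrow-derived macrophages (BMDMs) and are compared here, and 8 are of Th2 cells. The question was whether these genes were higher in the knockout macrophages, and whether they moved together in the same libraries.

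All mice were C57BL/6 and 8 to 16 weeks old. In TET iTKO mice floxed Tet1, Tet2 and Tet3 were deleted, and in TDG iKO mice floxed Tdg was deleted, by a tamoxifen-activated CreERT2 that sits at the Ndor1 locus and is not limited to myeloid cells. Both Cre-carrying and control mice received tamoxifen, so the WT cells had it too, and the floxed mice carried a Cre reporter at Rosa26. Whether the WT mice carried floxed alleles, the reporter or Cre was not given in the sources used here. TET enzymes oxidise 5-methylcytosine in DNA, and TDG is the glycosylase that excises the most oxidised forms. Bone marrow was cultured with L929-cell-conditioned medium and M-CSF, the macrophage growth factor, and non-adherent cells were washed away. Macrophages were left without stimulus (0 h) or given the Toll-like receptor 4 agonist KLA for 6 h. The Tet cohort held WT and TET iTKO, the Tdg cohort held WT and TDG iKO, and each of the 8 groups had 2 libraries. The Th2 libraries were of WT and TDG iKO, with 4 libraries per genotype. No label says that replicates came from separate animals, so p-values measure the spread between these libraries.

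Blood progenitors in the marrow carry CD34, KIT and FLT3 on their surface, and the transcription factor MYB keeps them dividing. As they commit to the granulocyte line they become promyelocytes, which fill their first (azurophil) granules with myeloperoxidase and the serine proteases neutrophil elastase, proteinase 3 and cathepsin G. GFI1 steers that choice towards neutrophils, and MS4A3 is a membrane protein of granulocyte-monocyte progenitors. Mature macrophages are known to have little RNA of the granule genes. In bulk RNA, more cells of a type and more RNA per cell cannot be told apart.

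Positions are given on the mm9 build, to which the authors aligned, from the GENCODE vM1 annotation. Mpo is on chromosome 11 (87607083 to 87617915), Ctsg on chromosome 14 (56718718 to 56721411) and Ms4a3 on chromosome 19 (11703987 to 11715341). Prtn3 (79337221 to 79345919) and Elane (79349057 to 79350961) are neighbours on chromosome 10, on the same strand and 3137 bases apart. Cd34 is on chromosome 1 (196765015 to 196787486) and Myb on chromosome 10 (20844736 to 20880790). Kit (75970941 to 76052747), Gfi1 (108145674 to 108155056) and Flt3 (148142317 to 148212065) are on chromosome 5. A gene on the other strand overlaps Prtn3 (BC005764, 0 to 35 counts in the BMDM libraries) and another overlaps Cd34 (Gm16897, 0 to 5 counts). The strand setting of the counting was not stated, so reads could not be assigned between these partners with certainty.

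Promoter sequences of 6 members are shown because the 4 granule genes shared a sequence that the other members lacked, and because Cd34 and Ms4a3 had the largest differences among the members that passed the test in TET iTKO. RefSeq promoters (GRCm38.p6, 250 bases before to 50 after the gene start) were matched for all 10 members. The letters AGGAAGT, the core bound by the ETS factor PU.1 (Spi1) among others, were searched on both strands and chosen after the sequences were seen. AGGAAGT stood once in each of Mpo, Elane, Prtn3 and Ctsg, on the strand of the gene, and in 4 of 10 members in all, while 9.57% of 27025 promoters with 1 per gene held it. Counted from the gene start, its first base was at -223 in Mpo, -84 in Elane, -94 in Prtn3 and -206 in Ctsg. The MYB-type letters AACNG, searched in the same way, were in 8 of 10 members and in 80.4% of all promoters, and the C/EBP-type letters TTGCNNAA were in 2 of 10 (Gfi1 and Ms4a3) and in 10.8%. No AGGAAGT match overlapped a match of either other motif. These matches describe letters and not binding. Capitals mark AGGAAGT, sequences run 5′ to 3′ on the strand of the gene, and coordinates are those of GRCm38.p6, not of the build used for counting.
Mpo, chr11:87793534-87793833, plus strand: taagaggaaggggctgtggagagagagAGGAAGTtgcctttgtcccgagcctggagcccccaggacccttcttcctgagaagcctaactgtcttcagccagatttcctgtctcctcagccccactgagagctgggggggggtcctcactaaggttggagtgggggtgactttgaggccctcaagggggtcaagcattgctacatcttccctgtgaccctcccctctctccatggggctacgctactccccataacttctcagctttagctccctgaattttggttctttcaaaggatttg
Elane, chr10:79886062-79886361, plus strand: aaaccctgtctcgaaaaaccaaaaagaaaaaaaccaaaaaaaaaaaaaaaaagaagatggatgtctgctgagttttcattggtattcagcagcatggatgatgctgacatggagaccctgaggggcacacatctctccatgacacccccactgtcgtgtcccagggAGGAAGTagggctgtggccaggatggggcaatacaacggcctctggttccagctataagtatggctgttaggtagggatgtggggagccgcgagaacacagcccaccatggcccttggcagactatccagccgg
Prtn3, chr10:79879417-79879716, plus strand: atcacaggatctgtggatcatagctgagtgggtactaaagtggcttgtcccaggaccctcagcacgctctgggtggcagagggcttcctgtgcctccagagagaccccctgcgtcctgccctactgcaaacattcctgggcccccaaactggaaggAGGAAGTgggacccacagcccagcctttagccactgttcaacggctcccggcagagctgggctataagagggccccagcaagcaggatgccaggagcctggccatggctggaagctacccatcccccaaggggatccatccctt
Ctsg, chr14:56102525-56102824, minus strand: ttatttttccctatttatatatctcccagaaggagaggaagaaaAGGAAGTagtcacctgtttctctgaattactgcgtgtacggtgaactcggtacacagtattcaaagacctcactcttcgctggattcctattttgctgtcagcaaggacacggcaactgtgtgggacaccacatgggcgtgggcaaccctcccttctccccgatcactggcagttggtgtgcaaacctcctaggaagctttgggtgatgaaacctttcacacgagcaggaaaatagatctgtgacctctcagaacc
Ms4a3, chr19:11640802-11641101, minus strand: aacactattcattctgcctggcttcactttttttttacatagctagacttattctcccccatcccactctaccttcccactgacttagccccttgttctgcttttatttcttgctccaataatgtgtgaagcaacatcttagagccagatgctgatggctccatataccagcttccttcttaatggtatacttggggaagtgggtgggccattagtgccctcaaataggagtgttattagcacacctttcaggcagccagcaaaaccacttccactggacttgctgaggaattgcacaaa
Cd34, chr1:194938571-194938870, plus strand: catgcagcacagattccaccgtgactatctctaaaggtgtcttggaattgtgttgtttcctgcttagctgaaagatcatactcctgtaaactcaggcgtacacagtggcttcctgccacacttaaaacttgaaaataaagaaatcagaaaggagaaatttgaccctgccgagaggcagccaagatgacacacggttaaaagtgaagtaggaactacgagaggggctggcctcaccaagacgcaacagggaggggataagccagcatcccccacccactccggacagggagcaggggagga

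Assigned counts ranged from 4982950 to 21503302 over the BMDM libraries, and the shallowest was replicate 2 of Tdg-cohort WT at 0 h, where 46.6% of read pairs were unassigned against 32.8% in the best library. All 10 macrophage markers (Csf1r and Lyz2 among them) were over 3 counts in every BMDM library, and the 6 erythroid markers were at or under 3 in every one. Counts over whole genes do not resolve the deleted exons, and Tdg was hardly counted in any library, so the targeted genes did not check the labels. Tdg was at 0 to 2.38 normalised counts in every BMDM library, WT included. The study measured Tdg transcripts in BMDMs by qRT-PCR, and why the counts were so low was not tested. Tet2 was at 822 to 1887 in the libraries labelled TET iTKO and 595 to 1672 in WT. Ndor1, where CreERT2 is inserted, was lower in the knockout libraries of both cohorts (216 to 295 against 387 to 494 in the Tet cohort, and 132 to 233 against 239 to 350 in the Tdg cohort). Xist was at 0 in replicate 1 of Tet-cohort WT at both times and at 4825 or more in the other 14 BMDM libraries. Values called normalised counts below were divided by DESeq2 size factors within a cohort and can be compared between libraries of that cohort only.

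Per length, the granule genes were the most abundant members. The median level over the 16 BMDM libraries was 3.42 RPKM (read counts scaled to exonic length and library size) for Mpo, 2.94 for Ctsg, 2.87 for Elane and 2.68 for Prtn3. Next came Cd34 at 1.11 RPKM and Ms4a3 at 0.979 RPKM, then Myb at 0.589, Gfi1 at 0.543, Kit at 0.344 and Flt3 at 0.0599 RPKM. Within libraries, Prtn3 was above Cd34 in RPKM in 16 of 16, and Kit was above Flt3 in 15 with 1 tie at 0. The other 7 pairs of neighbours in this order changed places between libraries, the upper of the pair being higher in 7 to 11 of 16. Levels between libraries ranged far more widely: Mpo alone ran from 4.07 to 157 CPM (counts scaled to library size alone), a range of 38.5-fold. Flt3 passed 3 counts in 9 of 16 BMDM libraries, Gfi1 in 12, Ms4a3 in 14, Elane, Kit and Myb in 15, and the other 4 in all.

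The level of the members was first a property of the library. Summed over the 10 genes it ran from 13.5 CPM (95% Wilson interval 11.8 to 15.4) in replicate 1 of Tet-cohort WT at 6 h to 363 CPM (352 to 375) in the 0 h TDG iKO library of replicate 1. Such intervals cover counting error only, and most of these steps were far larger. In the Tdg cohort the sum at 0 h was 116 and 15.9 CPM in WT and 363 and 33.1 CPM in TDG iKO (replicates 1 and 2 in turn), and at 6 h it was 137 and 19.2 CPM in WT and 300 CPM (288 to 311) and 29.9 CPM in TDG iKO. Replicate 1 was high and replicate 2 low in all 4 groups of that cohort. In the Tet cohort the sum at 0 h was 15.2 and 36.6 CPM in WT and 26.3 and 93.1 CPM in TET iTKO, and at 6 h it was 13.5 and 19.5 CPM in WT and 30.3 and 72.0 CPM in TET iTKO. Here replicate 2 was the high one in every group. The 0 h groups overlapped, with replicate 2 of WT (36.6 CPM) above replicate 1 of TET iTKO (26.3 CPM), while the 6 h groups did not.

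**Figure D1:**
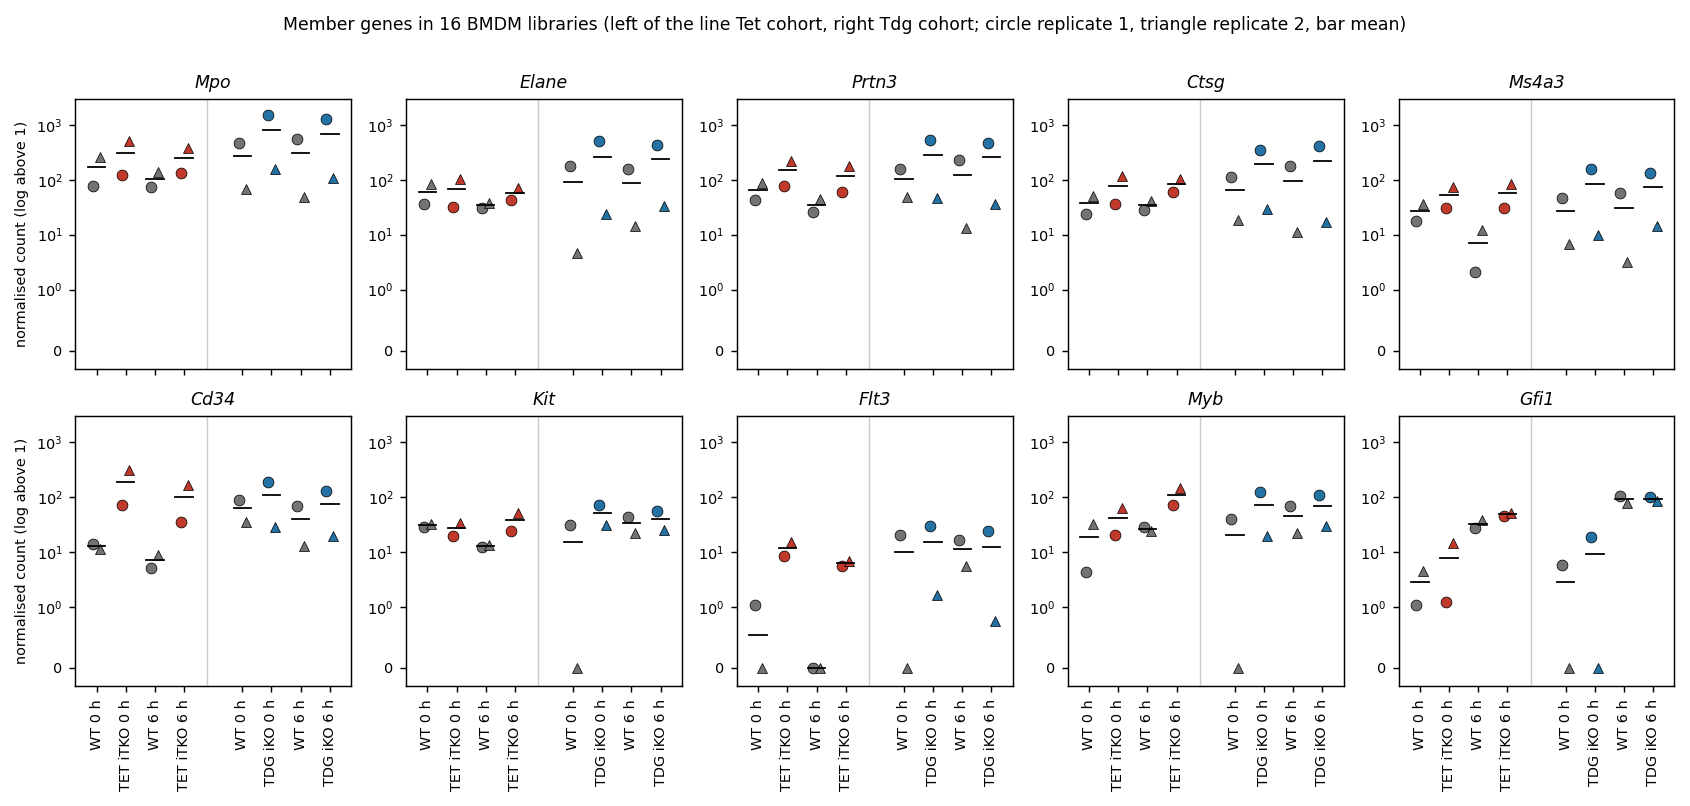
Normalised count of each member gene (log axis above 1, linear below) in the 16 BMDM libraries by group; circles are replicate 1, triangles replicate 2 and bars the mean of both. In the Tdg cohort the circles lie above the triangles in each panel, and in TET iTKO the triangles lie above the circles.

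The shift between replicates ran through the members together. In the Tdg cohort all 10 members were higher in replicate 1 than in replicate 2 in each of the 4 groups, by a median of 6.47-fold in WT at 0 h (over the 6 members not at 0 in either), 11.4-fold in TDG iKO at 0 h (9 members), 8.22-fold in WT at 6 h and 10.4-fold in TDG iKO at 6 h. Both TET iTKO groups had all 10 members higher in replicate 2, with medians of 3.13-fold at 0 h and 2.04-fold at 6 h. WT cells of the Tet cohort had 8 of 10 higher in replicate 2 at each time, with medians of 2.11-fold and 1.47-fold over the 9 members not at 0. The widest single gap was that of Elane in WT of the Tdg cohort at 0 h, at 178 and 4.6 normalised counts. Kit and Gfi1 had most of the narrowest gaps, down to 1.07-fold for Kit in WT of the Tet cohort at 6 h.

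The proportions among the granule genes varied less than their level. Per count of Mpo, Prtn3 was between 0.274 and 0.7 and Ctsg between 0.161 and 0.45 in the 16 libraries, ranges of 2.55-fold and 2.80-fold beside the 38.5-fold range of Mpo itself. In the Tet cohort alone Mpo had a narrower range, from 4.22 to 32.1 CPM. Elane stayed between 0.156 and 0.479 per count of Mpo except in the shallow 0 h WT library of the Tdg cohort, where 2 counts of Elane gave 0.0667. Cd34 did not keep to this proportion and ran from 0.0440 to 0.618 per count of Mpo. It was at 0.578 and 0.618 in TET iTKO at 0 h against 0.178 and 0.0440 in WT. At 6 h it was at 0.267 and 0.442 in TET iTKO against 0.0704 and 0.0645 in WT, again with no overlap. In Tdg-cohort libraries it was at 0.105 to 0.188 in TDG iKO and 0.121 to 0.500 in WT. Gfi1 ran from 0 to 1.60 per count of Mpo, with the high values at 6 h. Ratios of this kind share the denominator and, within a library, its depth, and were not tested.

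**Figure D2:**
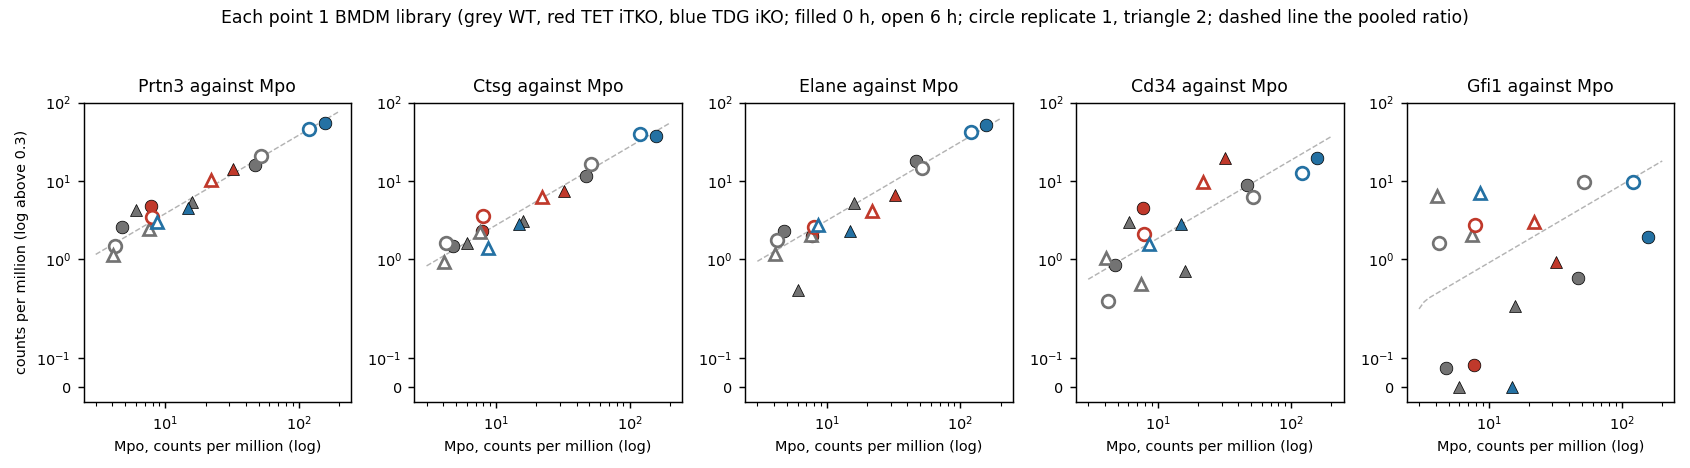
CPM of 5 members (vertical, log above 0.3) against those of Mpo (horizontal, log) in the 16 BMDM libraries, with a dashed line at the pooled ratio; colours mark genotype, filled points 0 h and open points 6 h. Prtn3 and Ctsg follow the line over a 38.5-fold range of Mpo, Cd34 lies above it in TET iTKO, and Gfi1 separates by time.

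Correlations across the 16 libraries describe the same pattern. After a log2 transform (pseudocount 1) and centring within cohort, Pearson's r of each member with the mean of the other 9 was 0.933 for Mpo, 0.924 for Ctsg, 0.917 for Elane, 0.893 for Ms4a3 and 0.883 for Prtn3. It was 0.822 for Flt3, 0.821 for Myb, 0.727 for Cd34, 0.723 for Kit and 0.356 for Gfi1. Libraries of a group are not independent points. Among 10364 genes with a mean of at least 20 normalised counts, the profile of the members was most like that of Ngp (r = 0.971, and 0.972 and 0.975 within the Tet and Tdg cohorts), which encodes a neutrophil granule protein. Next were Ltf (0.945), which encodes lactotransferrin of the later, specific granules, BC035044 (0.941), Prr11 (0.920) and 2610018G03Rik (0.920).

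TET iTKO macrophages at 0 h had more Cd34 than WT, and it was the only member that passed the test. Its normalised counts were 71.6 and 310.1 in TET iTKO and 13.7 and 11.5 in WT. Every TET iTKO value was above every WT value, although the TET iTKO replicates lay 4.33-fold apart. The log2 fold change was 3.93 (SE 1.05, DESeq2 adjusted p 0.00520, edgeR adjusted p 0.0219). Over all genes tested 4.38% were called higher and 3.12% lower, so 1 of 10 members called higher and 0 lower is close to that background. By edgeR, which also called Cd34 alone, the shares were 3.30% and 2.72%. Without replicate 2 of TET iTKO the change was 2.51 (DESeq2 adjusted p 0.0820), without replicate 1 of WT 4.06 (0.101) and without replicate 2 of WT 3.79 (0.138), and the call was lost each time. Without that last library Myb passed in its place.

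Flt3, the receptor of early lymphoid and myeloid progenitors, was also higher in both TET iTKO libraries at 0 h, at 8.49 and 15.3 normalised counts (7 and 17 reads counted) against 1.06 and 0 (1 and 0). The ratio of the summed counts was 27.9, with an exact 95% interval of 4.56 to 1150 for counting error alone, and the DESeq2 adjusted p was 0.135. Cd34 and Flt3 were the 2 of 10 members without overlap between the groups, and 27.3% of the genes tested lay higher without overlap. Kit, the stem cell factor receptor, was at 19.4 and 34.2 in TET iTKO and 28.5 and 32.9 in WT (log2 fold change -0.19, SE 0.62, DESeq2 adjusted p 0.959).

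The granule genes overlapped between genotypes at 0 h. Mpo was at 124 and 502 normalised counts in TET iTKO and 77.2 and 260.5 in WT, with a log2 ratio of 0.89 (SE 1.02, DESeq2 adjusted p 0.804). Elane was at 31.5 and 104 in TET iTKO and 37.0 and 84.8 in WT (0.16, SE 0.55). These values show a library of each genotype high and the other low. Prtn3 (1.20, SE 0.53) and Ctsg (1.02, SE 0.55) had DESeq2 adjusted p of 0.188 and 0.345. Ms4a3 was at 30.3 and 74.6 against 17.97 and 35.9 (0.96, SE 0.68). The regulators Myb (1.15, SE 0.68) and Gfi1 (1.45, SE 0.96) did not pass either. In all, 9 of 10 log2 fold changes were above 0, with a median of 1.08 beside 0.00833 over all genes tested, and 3 members had an unadjusted p under 0.05. Library by library, replicate 2 of TET iTKO exceeded both WT libraries in 10 of 10 members (39.9% of genes tested) and replicate 1 in 2 of 10 (39.5%).

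After 6 h of KLA, 4 members rose in TET iTKO against WT by DESeq2: Cd34, Ms4a3, Myb and Prtn3. Over all genes tested 3.24% were called higher and 3.34% lower. With edgeR none of the 10 passed, while 2.18% of genes were called higher and 2.50% lower and 6 members had an unadjusted p under 0.05. Cd34 was at 35.7 and 164 normalised counts in TET iTKO against 5.16 and 8.83 in WT (log2 fold change 3.84, SE 1.10, DESeq2 adjusted p 0.0108, edgeR 0.0502). Ms4a3 was at 30.1 and 82.7 against 2.06 and 12.1 (3.01, SE 0.76, DESeq2 adjusted p 0.00270, edgeR 0.0652). Myb, the progenitor transcription factor, was at 72.5 and 146 against 28.9 and 24.3 (2.04, SE 0.66, DESeq2 adjusted p 0.0344, edgeR 0.132). The groups did not overlap for any of these genes. Prtn3, the proteinase 3 gene, was at 59.1 and 177 against 25.8 and 44.1 (1.76, SE 0.55, DESeq2 adjusted p 0.0248, edgeR 0.152).

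These 4 calls rested on few libraries. Without replicate 2 of TET iTKO, or without replicate 1 of WT (the library with no Xist), 0 of 10 members passed, and without replicate 2 of WT only Ms4a3 did. The log2 fold change of Cd34 was then 2.36, 3.50 and 4.28 in turn, and that of Prtn3 0.76, 1.42 and 2.19. Prtn3 was also lost, with 3 members left, when genes needed at least 10 counts in 2 libraries.

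The other 6 members pointed the same way at 6 h. Flt3 was at 5.57 and 6.96 normalised counts (5 and 8 reads) in TET iTKO and at 0 in both WT libraries, at least 1.99-fold higher with the WT libraries at a floor of 3 counts each, and DESeq2 gave it no adjusted p. Kit was at 24.5 and 50.5 against 12.4 and 13.2 (log2 fold change 1.56, SE 0.65, DESeq2 adjusted p 0.155). Ctsg was at 60.2 and 104 against 27.8 and 40.8 (1.27, SE 0.56), and Elane at 43.5 and 69.6 against 30.9 and 37.5 (0.73, SE 0.57). Gfi1 was at 45.7 and 51.3 against 27.8 and 37.5 (0.57, SE 0.72). Mpo, at 134 and 372 against 73.2 and 137, was the member whose groups overlapped (1.27, SE 1.02). Thus 9 of 10 members lay higher without overlap, beside 24.1% of genes tested. Replicate 1 of TET iTKO exceeded both WT libraries in 9 of 10 members (37.8% of genes) and replicate 2 in 10 of 10 (36.0%). The median log2 fold change was 1.66 beside -0.00206 over all genes, and 7 members had an unadjusted p under 0.05. The 0 h and 6 h libraries are different libraries, but whether they came from the same animals was not stated. The difference between replicates correlated over genes between 0 h and 6 h (r = 0.384 in WT and 0.399 in TET iTKO). The 6 h values are therefore not counted as an independent repeat of those at 0 h.

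TDG iKO macrophages had higher group means for all 10 members at both times, with replicates far apart in both genotypes, and none passed the test. Mpo at 0 h was at 1494 and 155 normalised counts in TDG iKO and 467 and 69.0 in WT (log2 fold change 1.62, SE 1.78, DESeq2 adjusted p 1.00). Elane was at 499 and 24.2 against 178 and 4.6 (1.51, SE 2.10), and Ctsg at 356 and 29.03 against 114 and 18.4 (1.53, SE 1.95). In each gene a library of TDG iKO was the highest of the 4, and the other TDG iKO library lay below the higher WT library. Prtn3 was at 531 and 46.8 against 160 and 48.3, and Ms4a3 at 155 and 9.68 against 47.5 and 6.90. Cd34 was at 188 and 29.03 against 89.2 and 34.5 (0.79, SE 1.04), Myb at 122 and 19.9 against 39.9 and 0, and Flt3 at 29.4 and 1.61 against 19.9 and 0. Kit, at 72.5 and 30.6 against 30.4 and 0 (1.65, SE 1.02), was the 1 of 10 members without overlap, beside 10.8% of genes tested.

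No gene of any kind was called for TDG iKO against WT by DESeq2 or edgeR (0% of those tested at both times). At an unadjusted p under 0.05 DESeq2 had 265 of 15026 genes at 0 h and 34 at 6 h, and 0 members at either time. Replicate 1 of TDG iKO exceeded both WT libraries in 10 of 10 members at 0 h (24.7% of genes tested) and in 9 of 10 at 6 h (33.4%), and replicate 2 in 1 of 10 at 0 h (31.3%) and in 0 of 10 at 6 h (30.2%). Replicate 1 was the high one in WT too. Set against the WT library of the same number, TDG iKO was higher in 10 of 10 members in replicate 1 and 7 of 10 in replicate 2 at 0 h (1 was equal), and in 9 of 10 in each at 6 h, but no label says what a number marks. Leaving out 1 library sets unlike replicates against each other. Without replicate 1 of TDG iKO, which leaves its low library against a WT group that holds a high one, the log2 fold change was negative for 9 of 10 members at 0 h (not Kit) and 10 of 10 at 6 h. Without replicate 1 of WT at 0 h, WT was left with the shallowest library, where Kit and Myb had 0 counts. Calls spread over many genes in that fit, so a pass of members was not read as a result.

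At 6 h the TDG iKO values repeated this split. Mpo was at 1255 and 106 normalised counts in TDG iKO and 559 and 49.1 in WT (1.16, SE 1.78), Prtn3 at 476 and 36.3 against 228 and 13.5 (1.09, SE 1.79), and Ctsg at 414 and 17 against 180 and 11.1 (1.17, SE 1.95). Elane was at 439 and 33.2 against 158 and 14.3, Ms4a3 at 131 and 14.7 against 57.0 and 3.17, and Cd34 at 131 and 19.3 against 67.7 and 12.7. All of these were high in replicate 1 of either genotype. Kit (55.9 and 24.7 against 43.9 and 22.2), Myb (108 and 30.1 against 68.8 and 22.2) and Flt3 (24.3 and 0.770 against 16.6 and 5.54) overlapped too, as did Gfi1 (101 and 85.8 against 103 and 78.4). In 0 of 10 members were the groups apart, where 8.22% of genes tested lay higher without overlap. The median log2 fold change was 1.54 at 0 h and 0.998 at 6 h, beside 0.0417 and 0 over all genes.

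The effects of the knockouts were compared directly in a fit of all 16 libraries, each knockout against its own WT. None of the 10 members differed at 0 h or 6 h by DESeq2, where 0.282% of genes were higher and 0.0728% lower for the TET effect at 0 h and 0.0459% and 0.0306% at 6 h, and none by edgeR (0% of genes at 0 h, and 0% higher and 0.00851% lower at 6 h). At 0 h 1 member, Cd34, had an unadjusted p under 0.05, and at 6 h 0 had. Cd34 had a difference of 3.13 (SE 1.5, DESeq2 adjusted p 0.773) at 0 h and 2.95 (SE 1.53, DESeq2 adjusted p 1.00) at 6 h. The granule genes had differences between -1.35 and 0.685 over both times, each with an SE above 2. So whether TET iTKO and TDG iKO differ in these genes could not be settled with this spread. At 0 h, without replicate 1 of Tdg-cohort WT, that group was left with its shallowest library, where Kit had 0 counts. Calls spread over many genes in that fit too and were not read as a result.

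KLA changed Gfi1 more than any other member. In WT of the Tet cohort Gfi1 was at 27.8 and 37.5 normalised counts at 6 h against 1.06 and 4.58 at 0 h, which is 3.45 on the log2 scale (SE 0.90, DESeq2 adjusted p 0.000941, edgeR 0.0121). TET iTKO cells had 45.7 and 51.3 against 1.21 and 14.4 (2.57, SE 0.79, DESeq2 adjusted p 0.00645, edgeR 0.0254). In both genotypes the 6 h libraries lay above the 0 h libraries. WT of the Tdg cohort had 103 and 78.4 against 5.69 and 0 (4.87, SE 2.14, DESeq2 adjusted p 0.161), and TDG iKO had 101 and 85.8 against 18.4 and 0 (3.36, SE 2.04, DESeq2 adjusted p 0.528). Gfi1 was thus higher at 6 h without overlap in all 4 genotype groups, although it passed the test in the Tet cohort only, and between 23.3% and 31.2% of genes tested did the same in each. The call in WT of the Tet cohort was kept without any 1 library, and that in TET iTKO was lost without 3 of the 4 libraries in turn (all but replicate 2 at 0 h). In the Tdg cohort, without replicate 1 at 0 h of either genotype, the 0 h library left had 0 counts of Gfi1. A pass of Gfi1 in those fits was not read as a result.

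Ms4a3 was the 1 member that fell with KLA, in WT of the Tet cohort only by the test, from 17.97 and 35.9 to 2.06 and 12.1 normalised counts (log2 fold change -1.95, SE 0.78, DESeq2 adjusted p 0.0493, edgeR 0.112). In TET iTKO it was at 30.3 and 74.6 at 0 h and 30.1 and 82.7 at 6 h (0.10, SE 0.67). The difference of the responses was 2.05 (SE 1.02, DESeq2 adjusted p 1.00), so a change of the response by TET iTKO was not shown. The call was lost without replicate 1 or 2 of WT at 0 h and without replicate 1 at 6 h. Cd34 (5.16 and 8.83 at 6 h against 13.7 and 11.5) and Kit (12.4 and 13.2 against 28.5 and 32.9) were also lower without overlap in these WT cells, at -0.85 (SE 1.13) and -1.26 (SE 0.65), and did not pass. With Ms4a3 that made 3 of 10 members lower without overlap, close to the 32.9% of genes tested. In TET iTKO 1 of 10, Flt3, was lower without overlap (31.7% of genes), at 5.57 and 6.96 against 8.49 and 15.3 (-0.93). Myb was higher without overlap in TET iTKO at 6 h, at 72.5 and 146 against 20.6 and 62.9 (1.38, SE 0.65, DESeq2 adjusted p 0.113).

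The granule genes gave no call with KLA. Mpo, Elane, Prtn3 and Ctsg had log2 fold changes between -0.91 and 0.53 over the 4 genotype groups, and the groups overlapped in each. Counted over all members, 1 of 10 was called higher (13.1% of genes tested) and 1 lower (11.1%) in WT of the Tet cohort, and 1 higher (12.8%) and 0 lower (11.6%) in TET iTKO. In the Tdg cohort it was 0 in either direction in WT (5.29% and 3.32%) and in TDG iKO (4.27% and 2.81%), with 1 and 0 members at an unadjusted p under 0.05 and none called by edgeR (2.55% and 1.17% of genes in WT, 2.01% and 1.11% in TDG iKO). None of the 10 responses differed between knockout and WT, where DESeq2 called 0.0492% of genes higher and 0.377% lower for TET iTKO and 0% for TDG iKO. At an unadjusted p under 0.05 there was 1 member for TET iTKO (Ms4a3) and 0 for TDG iKO, and edgeR called 0 (0% of genes higher and 0.00874% lower for TET iTKO, 0% for TDG iKO).

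**Figure D3:**
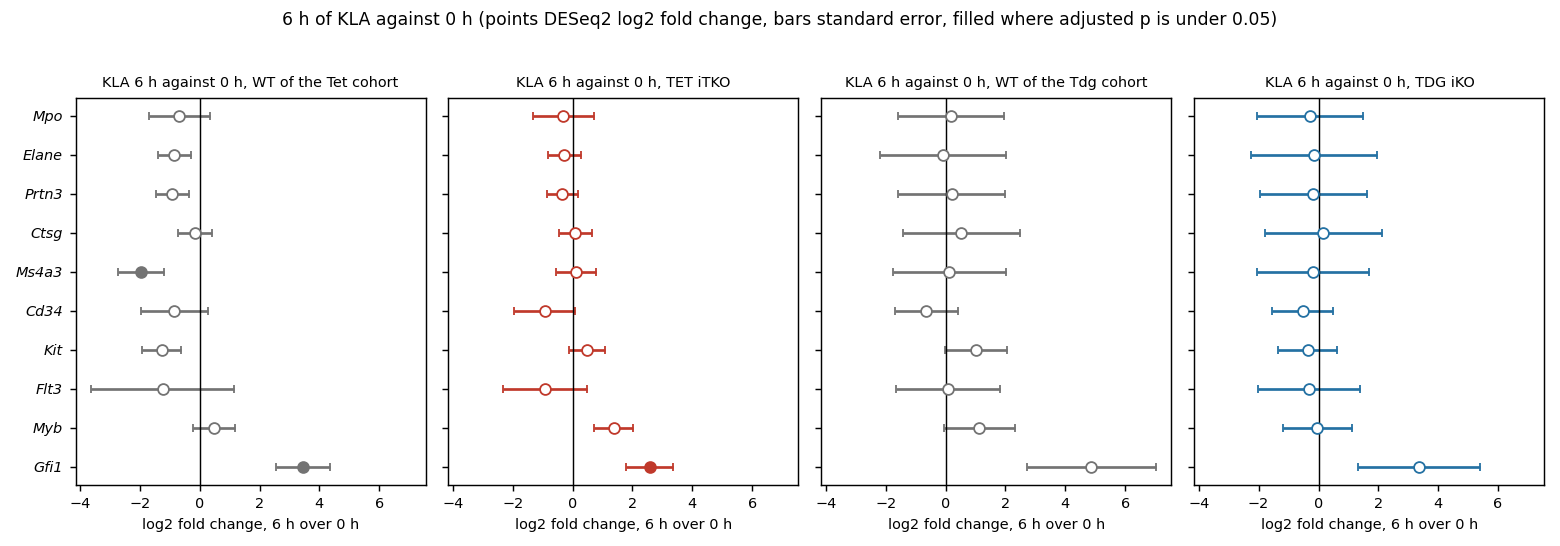
DESeq2 log2 fold change of each member (points) with its standard error (bars) at 6 h of KLA against 0 h in the 4 genotype groups; filled points passed an adjusted p of 0.05. Gfi1 is the rightmost point in each panel, and Ms4a3 in WT of the Tet cohort is the filled point below 0.

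Other genes of these stages were examined by list, and the lists too were chosen with earlier results of these data known. Of 11 further genes of promyelocytes, 10 were tested in TET iTKO at 0 h, with 2 higher and 1 lower, and 8 at 6 h, with the same numbers. Cst7, which encodes the protease inhibitor cystatin F, was at 247 and 373 normalised counts in TET iTKO and 86.7 and 117 in WT at 0 h (log2 fold change 1.61, SE 0.29, DESeq2 adjusted p 1.58e-06). Serpinb1a, an inhibitor of the granule proteases, was at 21.8 and 64.7 against 8.50 and 7.6 (2.44, SE 0.74, DESeq2 adjusted p 0.0179). Both were apart between genotypes. Calr, which encodes the chaperone calreticulin, fell by 0.42 on the log2 scale (SE 0.10). The median of the list was 0.20 at 0 h and -0.00795 at 6 h, so it did not share the median of the members.

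Of 29 regulators and surface proteins of stem and progenitor cells, 21 were tested in TET iTKO at 0 h, with 3 higher and 2 lower, and 19 at 6 h, with 0 higher and 3 lower. Cebpa, the factor that drives granulocyte-monocyte commitment, was at 769 and 592 normalised counts in TET iTKO and 1395 and 1655 in WT at 0 h (log2 fold change -1.17, SE 0.18, DESeq2 adjusted p 4.55e-09), and at 328 and 246 against 535 and 542 at 6 h (-0.91, SE 0.19, DESeq2 adjusted p 5.99e-05). At each time both TET iTKO libraries were below both WT libraries. The called genes that were higher at 0 h included Csf2rb (0.44, SE 0.11), the common beta receptor chain for GM-CSF and IL-3, and Procr (0.74, SE 0.21). The medians of the list were 0.22 and 0.02.

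Genes of later neutrophils and of monocytes included several that rose in TET iTKO, where 4.38% of all genes tested were called higher at 0 h and 3.24% at 6 h. Among 14 later neutrophil genes, 6 were higher and 0 lower at each time (13 and 10 tested), with medians of 1.66 and 1.26. Ltf was at 47.3 and 192 normalised counts in TET iTKO against 5.30 and 17.6 in WT at 0 h (log2 fold change 3.36, SE 0.68, DESeq2 adjusted p 4.89e-05), and Ngp at 79.1 and 184 against 13.4 and 25.4 at 6 h (2.77, SE 0.58, DESeq2 adjusted p 9.78e-05). These 2 genes were also the likest to the members over all libraries. Lcn2, whose product lipocalin 2 binds bacterial siderophores and is also made by macrophages, was at 1760 and 1301 against 285 and 214 at 0 h (2.62, SE 0.17). Among 9 monocyte genes, 7 were higher and 1 lower at each time, with medians of 2.07 and 1.59. Cx3cr1, the fractalkine receptor, was at 758 and 1665 normalised counts in TET iTKO against 56.0 and 55.0 in WT at 0 h (4.45, SE 0.54, DESeq2 adjusted p 5.11e-14). No gene of any of these lists was called for TDG iKO against WT.

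Genes of dividing cells were high and low in many of the same libraries as the members, and other marker lists followed them in part or not at all. The summed level of 8 genes of dividing cells was 87.6 and 217 CPM in TET iTKO against 49.6 and 57.2 CPM in WT at 0 h, and 78.7 and 148 against 49.7 and 52.9 CPM at 6 h, with 4 and 3 of 8 called higher. Tdg-cohort libraries had 195 to 380 CPM in the libraries of replicate 1 and 66.7 to 132 CPM in replicate 2, the same libraries in which the members were high and low. This match was between replicates and not within them. In replicate 1 at 0 h genes of dividing cells were at 369 CPM in WT and 380 CPM in TDG iKO, and the members at 116 and 363 CPM. The 6 B cell markers summed to 5.86 and 22.6 CPM in TET iTKO against 2.14 and 1.49 CPM in WT at 0 h, and 4.10 and 20.2 against 1.72 and 2.49 CPM at 6 h, with 3 and 1 of 6 called higher. Markers of mast cells and basophils, some of which have Kit, summed to 0.0661 to 2.15 CPM in the Tet cohort and 1.44 to 10.7 CPM in the Tdg cohort, and 4 of the 8 (Fcer1a, Mcpt4, Mcpt2 and Tpsb2) were at or under 3 counts in every BMDM library. The 10 macrophage markers summed to between 23100 and 30600 CPM, with 2 higher and 4 lower in TET iTKO at 0 h and 0 higher and 6 lower at 6 h. Their sum in TET iTKO was 24700 and 24800 CPM at 0 h, against 29200 and 27800 CPM in WT. At 6 h it was 24700 and 24300 against 29500 and 27600 CPM. Such a sum is weighted towards genes with high counts, here Lyz2. At 0 h Lyz2 was at 232635 and 223876 normalised counts in TET iTKO against 310202 and 295121 in WT (log2 fold change -0.41, SE 0.09). The median log2 fold change of the list was -0.0534 at 0 h and -0.445 at 6 h. The mannose receptor gene Mrc1 was at 2905 and 2197 normalised counts in TET iTKO against 6601 and 4495 in WT at 0 h (log2 fold change -1.12, SE 0.19, DESeq2 adjusted p 3.32e-07). Cd14 went the other way at 0 h, at 3316 and 5218 against 1486 and 1257 (1.64, SE 0.32, DESeq2 adjusted p 1.57e-05). Stromal markers ran the other way from the members in the Tdg cohort, at 1.71 to 5.71 CPM in replicate 1 and 6.91 to 20.0 CPM in replicate 2. Only 1 of the 5 was over 3 counts in every BMDM library, and all but Dcn were at 0 in replicate 2 of TDG iKO at 6 h. In the Tet cohort the sum at 0 h was 32.9 and 38.2 CPM in TET iTKO against 13.8 and 11.1 CPM in WT. At 6 h it was 57.4 and 63.4 against 20.5 and 17.9 CPM. Of 5 stromal markers 1 (Dcn) was called higher at 0 h and 2 (Dcn and Col1a1) at 6 h. Dcn weighs heavily in this sum and was at 467 and 575 normalised counts in TET iTKO against 205 and 160 in WT at 0 h. Of the T cell, dendritic cell and megakaryocyte markers 0 were called at either time. The part of these lists in the values of the members was not tested.

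**Figure D4:**
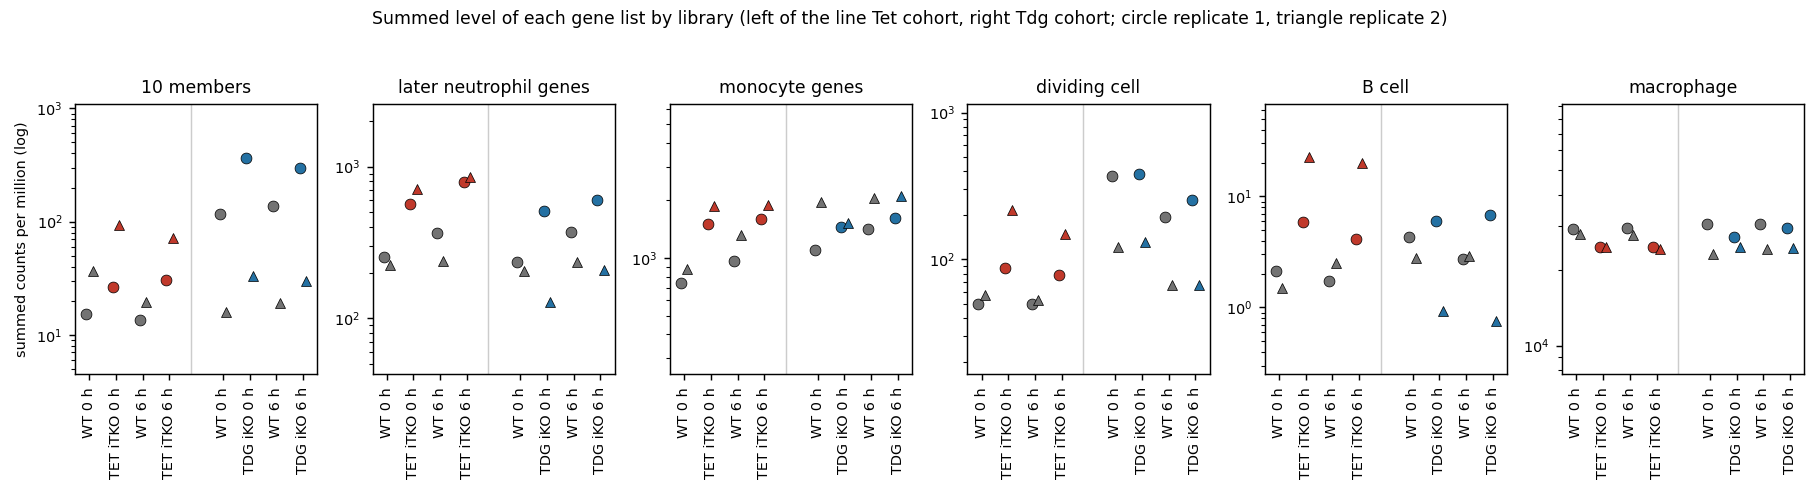
Summed CPM (log axes, with a scale of its own in each panel) of the 10 members and of 5 other gene lists in the 16 BMDM libraries; circles are replicate 1 and triangles replicate 2. Dividing-cell genes, like the members, are higher in replicate 1 of the Tdg cohort and in replicate 2 of TET iTKO. The sum of the macrophage markers, in which Lyz2 weighs heavily, lies within 23100 to 30600. It is lower in TET iTKO than in WT of the Tet cohort at both times.

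In Th2 cells Gfi1 and Myb were the members with the highest levels. Gfi1 had a median of 118 CPM over the 8 libraries of both genotypes (101 to 157), and Myb a median of 115 CPM (79.0 to 215). Their BMDM medians were 1.76 and 2.22 CPM. Flt3 had 2 to 18 counts and was over 3 in 5 of 8 libraries, with a median of 0.899 CPM against 0.370 CPM in BMDMs, and Kit had 0 to 4 counts. Mpo, Elane, Prtn3, Ctsg, Cd34 and Ms4a3 were at or under 3 counts in all 8 libraries, so the granule genes were at the floor in these cells. Replicates 3 and 4 of each Th2 group differed by little more than counting noise (mean chi-square per gene 1.34 and 1.51, against 21.3 to 218 for other pairs). They are not taken as separate samples here, although no label says that they share material. The medians over 8 libraries may thus count 1 sample more than once. In replicates 3 and 4 Myb was at 79.0 and 79.3 CPM in WT and 99.6 and 105 CPM in TDG iKO. In replicates 1 and 2 it was at 205 and 215 CPM in WT and 125 and 168 CPM in TDG iKO. No test of the members was made in Th2 cells.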

How the data were processed

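Per the labels and the study's methods, the authors used HISAT2 to align directional paired-end reads to mm9 and HTSeq-count to obtain counts for each gene. The tool versions, annotation and strand setting were not given in the sources used here. The deposited values were whole-number counts for 23420 genes, from 4982950 to 26657729 per library, beside 5 tallies of unassigned pairs that were left out. Pairs aligning to several places were not assigned.

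Groups came from the labels. Each BMDM cohort (8 libraries) was fitted with DESeq2 1.42.0 in R 4.3.3 (Wald test, unshrunken log2 fold changes, default filtering, Benjamini-Hochberg adjusted p under 0.05), and TET minus TDG effects in a fit of all 16. P-values were adjusted over all genes. Alternatives were edgeR 4.0.16 (quasi-likelihood, TMM), TMM factors in DESeq2, at least 10 counts in 2 libraries, no independent filtering, the replicate block, only the 4 libraries compared, and leaving out each library. CPM is relative to all assigned counts of a library and RPKM uses the exonic length of GENCODE vM1. Fits were tested on simulated data.

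The members and lists were chosen with earlier results of these data known. By rule, the 10 members were named, then the 3 genes of each list with the smallest adjusted p among those called (a few of which are shown) and the 5 genes most like the members. Dispersion was estimated from all groups of a cohort.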

Additional observations from a re-analysis of the deposited data

Results flagged for a closer look

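Both values concern the Th2 libraries, which no comparison of the members uses. Myb had at least 1311 raw counts and Gfi1 at least 906 raw counts in each of the 8 Th2 libraries, far above the floor of 3 counts, while the other 8 members had at most 18. They were singled out because they are a signal in data outside the BMDM comparisons. Both genes are also known as regulators in T cells, so their level in Th2 libraries is given as a value only.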

How the results depend on the processing

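The number of members called in TET iTKO at 6 h was 4, and it was 0 with edgeR. The 2 calls with KLA in WT of the Tet cohort became 1 with edgeR, with no independent filtering and with only the 4 libraries compared, where WT of the Tdg cohort went from 0 to 1. Between genotypes, same-numbered libraries deviated together in the Tdg cohort (r = 0.343 at 0 h and 0.773 at 6 h) and not in the Tet cohort (0.0203 and 0.05). Between 0 h and 6 h they deviated together in both cohorts. There r was 0.384 in WT and 0.399 in TET iTKO of the Tet cohort, and 0.362 in WT and 0.794 in TDG iKO of the Tdg cohort. No label says what a number marks. With the replicate block, 3 members were called in TET iTKO at 0 h, 5 at 6 h, 1 in TDG iKO at 0 h (Mpo, log2 fold change 1.49, DESeq2 adjusted p 0.00648), 2 with KLA in TET iTKO and 1 (Cd34) for the TET minus TDG effect at 0 h, and Flt3 in TDG iKO at 6 h turned to -1.02. The block nested in genotype kept Gfi1 and Ms4a3 in WT of the Tet cohort and Gfi1 in TET iTKO, and no other call of a member changed with the block.

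Leaving out 1 library at a time, the lone library being assumed to vary like the other groups, gave 0 to 1 members in TET iTKO at 0 h, 0 to 3 at 6 h, 0 to 2 in TDG iKO at 0 h and 0 to 1 for the TET minus TDG effect at 0 h. With KLA it gave 1 to 2 members in WT of the Tet cohort, 0 to 2 in TET iTKO, 0 to 3 in WT of the Tdg cohort and 0 to 1 in TDG iKO. Without replicate 1 of Tdg-cohort WT at 0 h the library left was the shallowest, and calls in those fits spread over many genes. Over the fits that each left out 1 library, the log2 fold changes that turned in sign had these ranges. In TET iTKO against WT at 0 h they were -0.45 to 2.02 for Mpo, -0.96 to 0.88 for Elane, -0.068 to 1.66 for Ctsg, -0.66 to 0.15 for Kit and -1.31 to 2.94 for Gfi1. In TDG iKO against WT at 0 h they were -0.79 to 3.57 for Mpo, -1.92 to 5.83 for Elane, -1.16 to 2.58 for Prtn3, -1.19 to 3.38 for Ctsg, -1.11 to 1.65 for Cd34, -2.69 to 5.18 for Flt3, -0.070 to 7.38 for Myb, -5.23 to 4.39 for Gfi1 and -1.52 to 3.57 for Ms4a3. At 6 h they were -1.52 to 3.79 for Mpo, -1.37 to 4.05 for Elane, -1.73 to 4.25 for Prtn3, -2.49 to 4.28 for Ctsg, -1.04 to 2.56 for Cd34, -0.41 to 0.86 for Kit, -3.83 to 1.16 for Flt3, -0.59 to 1.64 for Myb, -0.14 to 0.25 for Gfi1 and -1.02 to 4.52 for Ms4a3. With KLA in TET iTKO the range was -2.43 to 0.49 for Cd34. Most negative values in TDG iKO came without its replicate 1, where the low replicate alone is set against both WT libraries. Otherwise the cause was not tested.

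With 2 libraries a group, and counts of 0 to 32 for Flt3, small differences were not detectable at this depth.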
